A study of Homo sapiens with 6 samples.

Results

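The SLC16 genes encode the monocarboxylate transporters, and 9 of them (SLC16A1, SLC16A3, SLC16A4, SLC16A5, SLC16A6, SLC16A7, SLC16A9, SLC16A10 and SLC16A13) were read by gene symbol out of a count table of 58735 genes. The other 5 genes of this family of 14 are described beside them. The libraries came from the human breast cancer cell line MDA-MB-231, a line without oestrogen receptor, progesterone receptor or amplified HER2, in a study of how PM2.5 (fine airborne particles) bears on breast cancer. There were 3 libraries labelled PM2.5, from cells exposed for 48 h, and 3 labelled Control. All 6 are of the same single line, and no gene was altered in either group. The particle dose, the treatment of the Control cells and how separate the cultures were are not stated in the labels, so p-values measure the spread between these libraries. The symbols were chosen with the PM2.5 against Control comparison of these data already known. The differences of the 9 genes in that comparison are therefore given as a description, with no p-value of their own, and nothing is read from how many passed the threshold.

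Monocarboxylate transporters carry small organic acids and related solutes across the plasma membrane. MCT1 (SLC16A1), MCT2 (SLC16A7), MCT3 (SLC16A8) and MCT4 (SLC16A3) move lactate, pyruvate and ketone bodies together with a proton, and MCT4 is known as the lactate exporter of glycolytic cells, with a gene that responds to hypoxia. These carriers need a membrane chaperone, basigin (BSG) for MCT1 and MCT4 and embigin (EMB) for MCT2, to reach the cell surface. Other relatives carry aromatic amino acids (SLC16A10, also called TAT1) or carnitine (SLC16A9), and several have no settled substrate.

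Promoter windows of 300 bases, from 250 bases before to 50 bases after an annotated RefSeq start (GRCh38.p14), were matched for 5 of the 9 genes, with 11 windows in all. Among the sequences used here no window was matched for SLC16A1, SLC16A5, SLC16A6 or SLC16A13. The pair below is shown because SLC16A3 and SLC16A7 are the lactate carriers with a window. They differ in the short motif ACGTG, a form of the core bound by hypoxia-inducible factors, and its matches on either strand are in capitals.
SLC16A3, chr17:82228792-82229091, plus strand: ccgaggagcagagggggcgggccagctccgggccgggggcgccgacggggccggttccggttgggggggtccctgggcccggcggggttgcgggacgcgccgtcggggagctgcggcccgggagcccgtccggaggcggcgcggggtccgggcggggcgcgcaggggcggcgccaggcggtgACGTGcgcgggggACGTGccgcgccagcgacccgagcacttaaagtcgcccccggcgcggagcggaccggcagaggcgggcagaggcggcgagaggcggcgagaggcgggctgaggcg
SLC16A7, chr12:59595779-59596078, plus strand: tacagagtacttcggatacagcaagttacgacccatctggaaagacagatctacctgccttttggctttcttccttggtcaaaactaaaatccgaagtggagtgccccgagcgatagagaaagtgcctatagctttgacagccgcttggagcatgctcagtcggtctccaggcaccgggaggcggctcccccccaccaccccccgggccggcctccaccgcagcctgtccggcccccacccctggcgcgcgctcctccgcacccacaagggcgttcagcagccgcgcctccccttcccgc

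The SLC16A3 window held 2 matches of ACGTG, 51 CG dinucleotides and 82.7% G and C. It was picked from the 5 windows of that gene because the other 4 did not hold ACGTG, this form of the core. The SLC16A7 window shown held 0 matches, 21 CG dinucleotides and 62.7% G and C. The other window of SLC16A7, not printed here, held 0 matches, 1 CG dinucleotide and 38.0% G and C. The single SLC16A10 window held 1 match. In an SLC16A9 window both matches belonged to a single palindrome, CACGTG, the motif of MYC and related factors, which contains ACGTG on each strand. Of 35116 windows over all genes, 21.4% held ACGTG, 7.26% held CACGTG, 36.5% held GCGTG (the core bound by the aryl hydrocarbon receptor) and 13.3% held TGACNNNGC (a core of the antioxidant element bound by NRF2). TGACNNNGC occurred in 1 of the 11 windows of these genes, at SLC16A9. GCGTG occurred in the SLC16A10 window (1 match) and in SLC16A3 windows not printed here (3 and 1 matches). It also occurred in the SLC16A9 windows (1 match each), which overlap and share this same site.

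Total counts ran from 31846136 to 34691009 per library, and CPM below stands for a library's counts scaled to a common total. A gene with 0 counts may still have had up to 0.0865 CPM in the deepest and 0.0942 CPM in the shallowest library, limits of counting error only. The markers expected of this line were present, with summed levels of 5117 to 5386 CPM in PM2.5 libraries and 4371 to 5005 CPM in Control libraries for 5 genes that include VIM and CD44, and ESR1, the oestrogen receptor, had 0 counts in every library. Of those 5 genes, EGFR had 158 ± 5.04 CPM in PM2.5 and 294 ± 39.1 CPM in Control libraries and was called lower. CAV1 had 164 ± 7.40 CPM in PM2.5 and 77.3 ± 4.41 CPM in Control libraries (SD, n = 3 each) and was called higher. Of markers of other cells, the summed level of 5 luminal genes was 4.01 to 4.64 CPM in PM2.5 and 5.59 to 7.04 CPM in Control libraries, and that of 4 leukocyte genes 2.53 to 3.73 CPM in PM2.5 and 1.14 to 2.29 CPM in Control libraries. For 4 endothelial genes it was 54.3 to 58.8 CPM in PM2.5 and 39.8 to 52.7 CPM in Control libraries, and for 5 fibroblast genes 26.8 to 30.6 CPM in PM2.5 and 24.8 to 31.0 CPM in Control libraries. Most of the luminal sum was GATA3, of the endothelial sum PECAM1 and of the fibroblast sum COL1A1. Most of the leukocyte sum was CD14, at 3.08 ± 0.605 CPM in PM2.5 and 1.77 ± 0.581 CPM in Control libraries, called higher. The fibroblast gene PDGFRB had 4.59 ± 0.385 CPM in PM2.5 and 5.12 ± 1.22 CPM in Control libraries. PTPRC, CD3E, LUM and DCN were at 0 in all 6 libraries, and CDH5 and PDGFRA were at 0 in 5 of 6. Control replicate 3 stood apart on the second principal component (14.98% of the variance), at a score of -36.9 against 16.5 and 14.8 in Control replicates 1 and 2. Mitochondrial transcripts took 2.68% to 2.78% of counts in PM2.5 libraries and 3.05% to 3.47% in Control libraries. HMOX1, haem oxygenase 1, is known to be induced by particulate matter, yet it had 51.3 ± 6.005 CPM in the libraries labelled PM2.5 and 813 ± 58.3 CPM in those labelled Control (SD, n = 3 each). Whether the labels of the groups were exchanged was not tested; if they were, every sign, rank by fold change, "rose" and "fell" below would turn round. The part of these features in the results was not tested.

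Counts and CPM are not scaled for gene length, which was 8995 bases for SLC16A3 and 4061 for SLC16A6. Shares and sums of them are therefore not those of transcripts. SLC16A3 supplied most of the family's counts. It took 92.0% ± 0.38 of the counts of the 14 SLC16 genes in PM2.5 libraries and 82.9% ± 1.20 in Control libraries (SD, n = 3 each), and the groups did not overlap. The 14 genes together reached 815 ± 77.1 CPM in PM2.5 libraries and 758 ± 44.8 CPM in Control libraries, with overlapping ranges. Without SLC16A3 the sum was 65.0 ± 3.14 CPM in PM2.5 libraries and 130.3 ± 16.3 CPM in Control libraries, and every PM2.5 library lay below every Control library. SLC16A6 alone took 0.139% ± 0.0210 of the family's counts in PM2.5 libraries and 4.33% ± 1.06 in Control libraries.

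**Figure D1:**
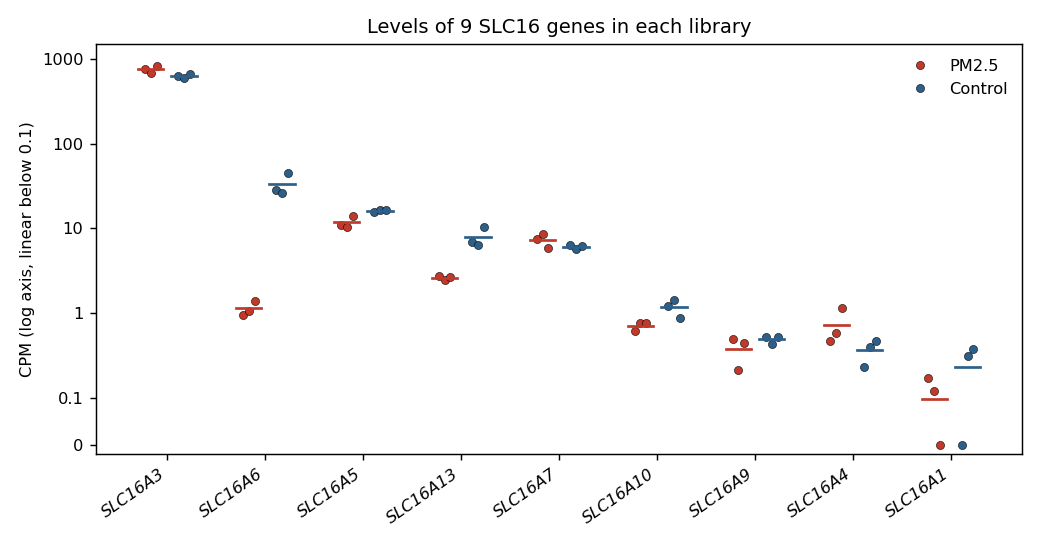
CPM of the 9 genes (log axis, linear below 0.1 so that 0 can be drawn) in each library, with points for libraries and bars for group means, 3 libraries each for PM2.5 and Control. SLC16A6 lay between 0.951 and 1.40 CPM in PM2.5 libraries and between 26.2 and 44.6 CPM in Control libraries, while the lowest library for SLC16A3 stood at 596 CPM.

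All p-values come from edgeR's quasi-likelihood test and were adjusted by the Benjamini-Hochberg method across the whole table. Of the 9 genes 8 passed the filter on low counts and were tested, and SLC16A1 did not pass it. At an adjusted p under 0.05 over all genes 3 were lower (SLC16A5, SLC16A6 and SLC16A13), 0 were higher and 5 were not called, where 31.9% of the 14975 tested genes were called, 15.8% lower and 16.1% higher. The groups were separate, with no library of one among those of the other, for 5 of the 8 (SLC16A3, SLC16A5, SLC16A6, SLC16A10 and SLC16A13), against 44.3% of all tested genes. The median log2 fold change of the 8 was -0.42, PM2.5 over Control, and that of all tested genes -0.01.

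Among the proton-coupled lactate carriers, SLC16A3 (MCT4; ENSG00000141526, chr17:82228397-82261129, plus strand) had 754, 674 and 822 CPM in PM2.5 libraries, against 633, 596 and 655 CPM in Control libraries. The PM2.5 libraries were all above the Control libraries, but PM2.5 replicate 2 was close to Control replicate 3. The mean was 749.98 ± 73.9 CPM in PM2.5 libraries and 628 ± 30.0 CPM in Control libraries (SD, n = 3 each), a log2 fold change of 0.26 ± 0.10 (SE) that did not pass the threshold. It passed in 5 of 13 alternative fits: with library totals alone, with a minimum count of 50, with DESeq2, and on leaving out PM2.5 replicate 2 or Control replicate 3. SLC16A3 ranked 177th of all genes by mean CPM in PM2.5 libraries and 218th in Control libraries. Other genes' exons, among them those of the kinase gene CSNK1D on the opposite strand, cover 6.04% of its exonic bases.

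SLC16A7 (MCT2; ENSG00000118596, chr12:59596067-59789855, plus strand), a carrier with high affinity for pyruvate and lactate, had 7.46, 8.60 and 5.83 CPM in PM2.5 libraries, against 6.31, 5.65 and 6.17 CPM in Control libraries. The groups overlapped, since PM2.5 replicate 3 lay between the Control libraries, and the log2 fold change of 0.27 ± 0.18 (SE) did not pass the threshold. SLC16A1 (MCT1; ENSG00000155380, chr1:112911847-112957013, minus strand), the most widespread lactate carrier of human tissues, had 6, 4 and 0 counts in PM2.5 libraries and 0, 10 and 13 counts in Control libraries. That is 0.173, 0.121 and 0 CPM in PM2.5 libraries and 0, 0.309 and 0.380 CPM in Control libraries, so each group held a library at 0 and levels in the others were a few times the floor at most. Without the filter its log2 fold change was -1.22 ± 1.03 (SE), and a difference of SLC16A1 was not detectable at this depth. Its antisense RNA SLC16A1-AS1, which shares 3.29% of its exonic bases, had 2 counts over the 6 libraries.

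SLC16A6 showed by far the largest difference of the 9 genes. SLC16A6 (MCT7; ENSG00000108932, chr17:68267026-68291267, minus strand), whose zebrafish counterpart exports ketone bodies from liver cells, had 33, 35 and 48 counts in PM2.5 libraries, against 873, 850 and 1524 counts in Control libraries. These were 0.951, 1.06 and 1.40 CPM in PM2.5 libraries and 28.5, 26.2 and 44.6 CPM in Control libraries. Every PM2.5 library was far below every Control library, and the most were in Control replicate 3, which stood apart on the second component. SLC16A6 fell to 1.14 ± 0.235 CPM in PM2.5 libraries, against 33.1 ± 10.01 CPM in Control libraries (SD, n = 3 each), a ratio of means of 29.2 and a log2 fold change of -4.86 ± 0.23 (SE). This was the third lowest log2 fold change of the 14975 tested genes, and it ran from -5.04 to -4.59 over 13 alternative fits, with -4.59 without Control replicate 3. In bulk RNA, fewer cells with the transcript and less transcript per cell cannot be told apart.

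The gene lies inside the span of ARSG, a lysosomal sulfatase gene read from the opposite strand, whose exons cover 3.55% of the exonic bases of SLC16A6. The counting is not stated to use strand, so reads of that stretch cannot be assigned to either gene. Exons of other genes, SLC16A6 and WIPI1 among them, cover 19.6% of the exonic bases of ARSG, where reads cannot be told apart either. ARSG fell as well, to 5.59 ± 0.975 CPM in PM2.5 libraries, against 12.7 ± 0.853 CPM in Control libraries (log2 fold change -1.19 ± 0.16, SE; adjusted p = 4.47e-05, edgeR). Of 17 other tested genes within 500000 bases of SLC16A6, a window chosen after its values were seen, 4 fell and 1 rose, where 15.8% of all tested genes were called lower and 16.1% higher, and their median log2 fold change was 0.05. The falls were ARSG, AMZ2 (-0.54 ± 0.09), WIPI1 (-0.46 ± 0.10) and the non-coding AC005332.4 (-0.81 ± 0.28), and the rise was the nuclear import gene KPNA2 (0.95 ± 0.09). PRKAR1A, a subunit of protein kinase A in the same window and likewise named after its value was seen, had a log2 fold change of -0.14 ± 0.09 and was not called.

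**Figure D2:**
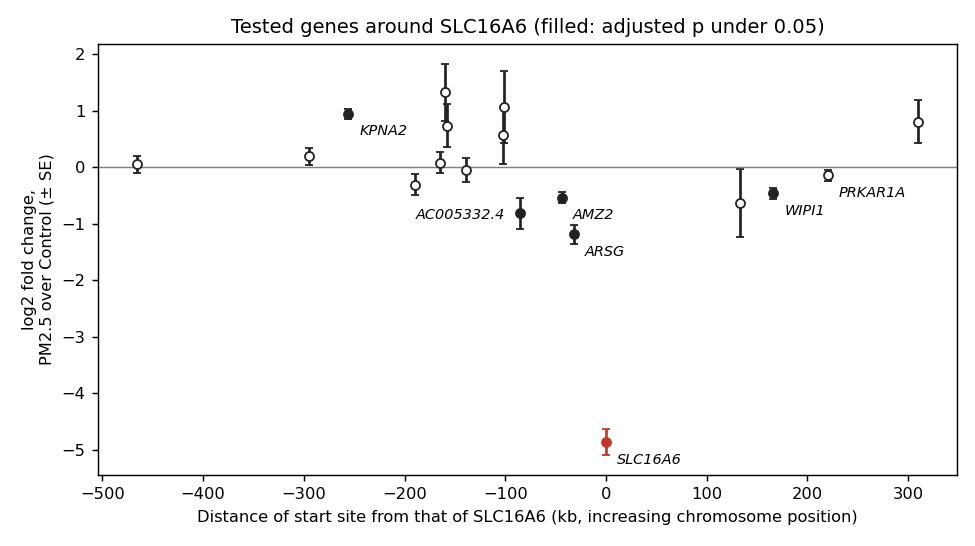
Log2 fold change, PM2.5 over Control, of tested genes (points, bars ± SE, filled where the adjusted p was under 0.05) against the distance of their start site from that of SLC16A6 in kb. SLC16A6 stands at -4.86 and the next lowest gene of the window, ARSG, at -1.19.

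By the root mean square difference of log2 CPM, centred on each gene's mean over the 6 libraries, the protein-coding genes with the pattern nearest to SLC16A6 were HMOX1 (0.451), MMP3 (0.713) and DUSP15 (0.762) among 12652 compared, a search added after its values were seen. Their log2 fold changes, PM2.5 over Control, were -3.99 ± 0.12, -3.41 ± 0.11 and -3.50 ± 0.22 (SE). With 2 groups this measure largely follows the difference between them, so a gene with so large a fall lies nearest to other genes with large falls. Shared regulation was not tested. By the same measure the genes nearest to SLC16A3, the most abundant of the 9, were TMEM132A (0.0122), the pyruvate kinase gene PKM (0.0145) and CSRNP1 (0.0277). PKM had 2802 ± 304 CPM in PM2.5 libraries and 2363 ± 85.1 CPM in Control libraries.

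Of the remaining relatives, SLC16A13 (MCT13; ENSG00000174327, chr17:7036075-7040121, plus strand) fell to 2.74, 2.47 and 2.65 CPM in PM2.5 libraries, against 6.93, 6.26 and 10.3 CPM in Control libraries. The groups were well apart and the highest level was again that of Control replicate 3. The means were 2.62 ± 0.134 CPM in PM2.5 libraries and 7.84 ± 2.18 CPM in Control libraries (SD, n = 3 each), and the log2 fold change was -1.58 ± 0.21 (SE), or -1.33 without Control replicate 3. No other gene's exons cover it. Its neighbour SLC16A11, on the opposite strand, had 2, 0 and 4 counts in PM2.5 libraries and 4, 16 and 8 counts in Control libraries and was not tested.

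SLC16A5 (MCT6; ENSG00000170190, chr17:75087727-75106162, plus strand), a carrier known for drug substrates such as bumetanide, fell to 10.8, 10.4 and 13.9 CPM in PM2.5 libraries, against 15.7, 16.6 and 16.4 CPM in Control libraries. All PM2.5 libraries were below the Control libraries, and the means were 11.7 ± 1.94 CPM in PM2.5 libraries and 16.2 ± 0.487 CPM in Control libraries (SD, n = 3 each). The log2 fold change of -0.47 ± 0.14 (SE) missed the threshold on leaving out PM2.5 replicate 1 (-0.40), PM2.5 replicate 2 (-0.39) or Control replicate 2 (-0.45).

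SLC16A10 (TAT1; ENSG00000112394, chr6:111087503-111231194, plus strand), which carries aromatic amino acids, had 0.605, 0.754 and 0.758 CPM in PM2.5 libraries, against 1.21, 1.42 and 0.878 CPM in Control libraries. The groups did not overlap, but the log2 fold change of -0.72 ± 0.38 (SE) did not pass the threshold and rested on 21 to 26 counts per PM2.5 library and 30 to 46 per Control library. SLC16A9 (MCT9; ENSG00000165449, chr10:59650761-59736002, minus strand), linked to carnitine transport, had 0.490, 0.211 and 0.437 CPM in PM2.5 libraries, against 0.523, 0.432 and 0.527 CPM in Control libraries. The groups overlapped, with a log2 fold change of -0.37 ± 0.50 (SE). SLC16A4 (MCT5; ENSG00000168679, chr1:110362848-110391082, minus strand) had 16, 19 and 39 counts in PM2.5 libraries and 7, 13 and 16 counts in Control libraries. These were 0.461, 0.573 and 1.14 CPM in PM2.5 libraries and 0.229, 0.401 and 0.468 CPM in Control libraries, so that the groups just overlapped, with a log2 fold change of 0.97 ± 0.50 (SE). PM2.5 replicate 3 alone lay clearly above the rest.

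Of 13 genes whose spans overlap those of the 9 genes 6 were tested and 2 were called, where 31.9% of all tested genes were, namely ARSG and AL355488.1, an antisense RNA across SLC16A4 that rose (log2 fold change 0.93 ± 0.31, SE; adjusted p = 0.0332, edgeR). The tested ones that were not called were CSNK1D, AC132872.3 and AC132872.4 at SLC16A3 and LAMTOR5-AS1 at SLC16A4. The 7 genes not tested, AKR7A2P1, MIR6787, RF00019, AC079905.2, RNU6-960P, AL360227.1 and SLC16A1-AS1, had at most 2 counts over the 6 libraries.

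**Figure D3:**
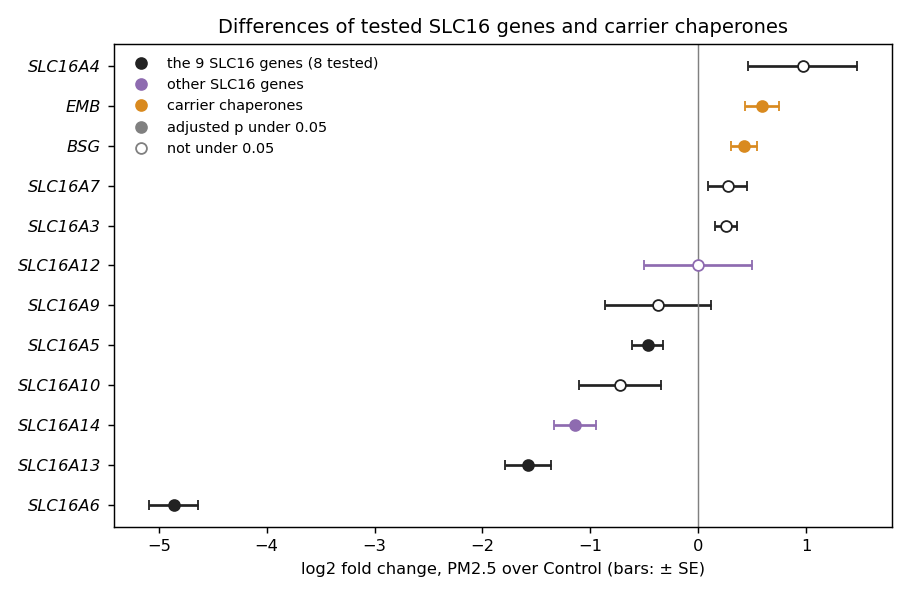
Log2 fold change, PM2.5 over Control, with bars of ± SE, of the 8 tested genes, 2 tested genes of the rest of the family and the chaperone genes BSG and EMB; filled points passed an adjusted p of 0.05. SLC16A6 stands apart at -4.86, followed by SLC16A13 at -1.58 and SLC16A14 at -1.14, and BSG and EMB lie above 0.

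Levels were compared between genes per length, as FPKM (CPM per kilobase of the deposited gene length). In PM2.5 libraries the order was SLC16A3 (83.4 ± 8.22 FPKM), SLC16A5 (3.79 ± 0.627), SLC16A13 (1.26 ± 0.0644), SLC16A7 (0.534 ± 0.102), SLC16A6 (0.280 ± 0.0578), SLC16A4 (0.229 ± 0.114), SLC16A9 (0.0857 ± 0.0334), SLC16A10 (0.0628 ± 0.00777) and SLC16A1 (0.0184 ± 0.0167; SD, n = 3 each). In Control libraries it was SLC16A3 (69.8 ± 3.33 FPKM), SLC16A6 (8.15 ± 2.46), SLC16A5 (5.25 ± 0.158), SLC16A13 (3.76 ± 1.05), SLC16A7 (0.442 ± 0.0255), SLC16A4 (0.116 ± 0.0390), SLC16A9 (0.112 ± 0.0121), SLC16A10 (0.104 ± 0.0243) and SLC16A1 (0.0432 ± 0.0380). SLC16A6 thus held place 5 in PM2.5 libraries and place 2 in Control libraries. The ranges of neighbours in the order overlapped for SLC16A6 with SLC16A4 and SLC16A9 with SLC16A10 in PM2.5 libraries, and for SLC16A4 with SLC16A9 and SLC16A9 with SLC16A10 in Control libraries; the other neighbours were apart.

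Of the other 5 family genes 3 were tested and 2 of them fell, SLC16A14 among them, where 15.8% of all tested genes were called lower. SLC16A14 (chromosome 2) had 3.23, 3.77 and 2.48 CPM in PM2.5 libraries, against 7.06, 6.79 and 7.05 CPM in Control libraries (log2 fold change -1.14 ± 0.19, SE, edgeR's adjusted p = 0.00034). SLC16A12, a creatine carrier, did not pass the test (log2 fold change -0.003 ± 0.50). MCT3 (SLC16A8), the lactate carrier of the retinal pigment epithelium, had 6, 6 and 18 counts in PM2.5 libraries and 4, 4 and 3 counts in Control libraries and was not tested.

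**Figure D4:**
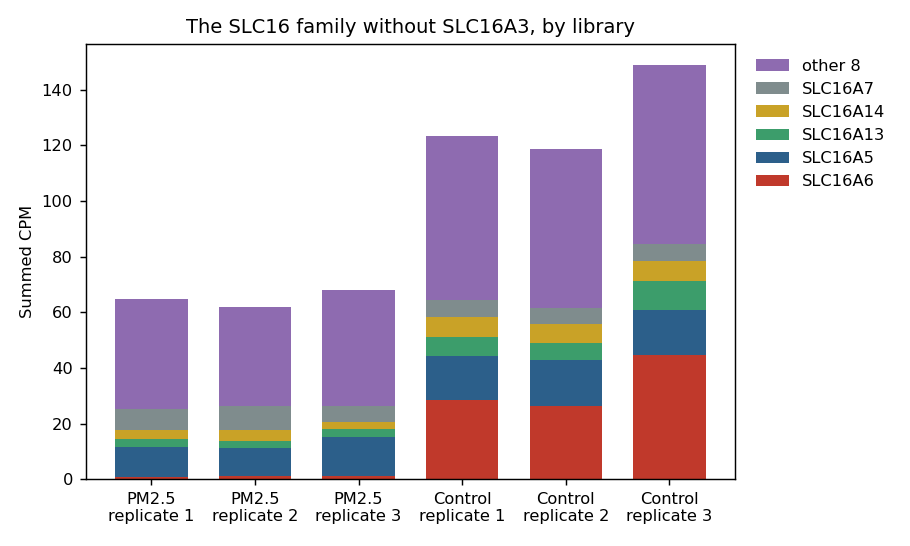
Summed CPM of the 13 SLC16 genes other than SLC16A3, stacked by gene for 5 of them and as 1 sum for the other 8, in 3 PM2.5 and 3 Control libraries. The stacks reach 61.9 to 68.2 CPM in PM2.5 and 118.6 to 148.9 CPM in Control libraries, and the band of SLC16A6 is barely visible in PM2.5 libraries.

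Both chaperones of the lactate carriers rose, where 16.1% of all tested genes were called higher. Basigin (BSG, also called CD147) had 1276, 1146 and 1429 CPM in PM2.5 libraries, against 1048, 1015 and 806 CPM in Control libraries, without overlap. Its log2 fold change was 0.42 ± 0.12 (SE, edgeR's adjusted p = 0.0128), a call lost without PM2.5 replicate 1 (adjusted p = 0.0512) or PM2.5 replicate 3 (0.0591). Embigin (EMB) had 12.8, 13.8 and 10.8 CPM in PM2.5 libraries, against 6.96, 8.36 and 9.48 CPM in Control libraries (0.59 ± 0.16, edgeR's adjusted p = 0.0101, and 0.0584 without Control replicate 1).

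Among 21 enzymes and carriers that make or use lactate and pyruvate 18 were tested, of which 2 rose and 5 fell, with a median log2 fold change of -0.10. Over all tested genes 16.1% were called higher and 15.8% lower, shares that apply to each group below as well. LDHA, the lactate dehydrogenase subunit that favours lactate formation, had 2704, 2700 and 2784 CPM in PM2.5 libraries, against 1574, 1599 and 1919 CPM in Control libraries (0.69 ± 0.11, SE, edgeR's adjusted p = 0.000178). LDHB, the subunit of the heart-type enzyme, had 13.8 ± 1.43 CPM in PM2.5 libraries and 14.6 ± 1.59 CPM in Control libraries and did not pass the test. PDK1, a kinase that switches off pyruvate dehydrogenase, had 13.4, 15.4 and 13.3 CPM in PM2.5 libraries, against 6.93, 6.67 and 9.39 CPM in Control libraries (0.87 ± 0.16, adjusted p = 0.000651). The kinases PDK2 (-0.08 ± 0.15), PDK3 (0.02 ± 0.12) and PDK4 (0.20 ± 0.17) were not called. MPC1, a subunit of the mitochondrial pyruvate carrier, had 13.6, 12.1 and 14.9 CPM in PM2.5 libraries, against 19.2, 21.6 and 20.8 CPM in Control libraries (-0.60 ± 0.13, adjusted p = 0.00204), while its partner MPC2 (-0.20 ± 0.10) was not called. The D-lactate dehydrogenase LDHD (-0.71 ± 0.15) and the phosphatase subunit PDP1 (-0.36 ± 0.10) were also lower. PDP1 missed the threshold on leaving out PM2.5 replicate 1 (-0.34), PM2.5 replicate 3 (-0.27) or Control replicate 2 (-0.31), and without PM2.5 replicate 1 the calls of this group numbered 4.

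Lactate leaves the cell with a proton, and of 13 genes of proton and bicarbonate handling 11 were tested, of which 4 rose and 1 fell (median log2 fold change 0.26). Carbonic anhydrase CA12, a surface enzyme, had 32.6, 30.8 and 30.0 CPM in PM2.5 libraries, against 16.4, 16.2 and 15.8 CPM in Control libraries (0.95 ± 0.11, SE, edgeR's adjusted p = 8.28e-06). The bicarbonate importer SLC4A7 had 407, 499 and 304 CPM in PM2.5 libraries, against 228, 250 and 223 CPM in Control libraries (0.79 ± 0.14). CA14 rose to 1.11 ± 0.416 CPM in PM2.5 libraries, against 0.410 ± 0.0835 CPM in Control libraries, and the bicarbonate exchanger SLC4A2 (0.24 ± 0.11) was not called. CA14 missed the threshold on leaving out PM2.5 replicate 2 (1.30), PM2.5 replicate 3 (1.22) or Control replicate 1 (1.29), SLC4A2 passed it without Control replicate 3 (0.36), and the calls of this group numbered 3 without PM2.5 replicate 2 or PM2.5 replicate 3.

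Genes that make or use the other cargoes of the family were lower where they were called, apart from SLC7A5. Of 8 ketone body enzymes 6 were tested and 3 fell, with a median log2 fold change of -0.56. The hydroxybutyrate dehydrogenases BDH1 (-0.77 ± 0.12, SE) and BDH2 (-0.96 ± 0.25) were among the falls, and the thiolase ACAT1 (-0.20 ± 0.10) was not called. Of 11 carnitine genes 7 were tested and 3 fell (median -0.33), namely the transporter SLC22A4 (-0.90 ± 0.24) and the acyltransferases CPT1A (-0.33 ± 0.09) and CRAT (-0.34 ± 0.10). BDH2 missed the threshold without Control replicate 1 (-0.69). The carnitine calls numbered 0 without PM2.5 replicate 1 and 1 without Control replicate 1. Of 14 genes of aromatic amino acids and thyroid hormone 8 were tested, of which 1 rose and 3 fell (median -0.10).

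In that group the amino acid exchanger SLC7A5 had 159, 144 and 164 CPM in PM2.5 libraries, against 92.7, 89.8 and 95.6 CPM in Control libraries (0.75 ± 0.09, SE). Its partner chain SLC3A2 had 192, 193 and 218 CPM in PM2.5 libraries, against 355, 368 and 286 CPM in Control libraries (-0.74 ± 0.11). SLC43A2 fell to 8.56 ± 0.565 CPM in PM2.5 libraries, against 27.1 ± 2.11 CPM in Control libraries (-1.66 ± 0.13), and SLC43A1 had a log2 fold change of -0.45 ± 0.14, called lower. SLC43A1 missed the threshold on leaving out PM2.5 replicate 1 (-0.46), PM2.5 replicate 2 (-0.37) or Control replicate 1 (-0.38). None of the 5 sodium-coupled monocarboxylate transporters and hydroxycarboxylic acid receptors passed the filter on low counts. Among them the lactate receptor HCAR1 had 0.157 ± 0.103 CPM in PM2.5 libraries and 0.248 ± 0.162 CPM in Control libraries, and SLC5A12 was at 0 in 5 of 6 libraries. These groups of related genes were chosen with results of these data known. Their calls are to be read against the 31.9% of all tested genes that were called, 15.8% lower and 16.1% higher.

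**Figure D5:**
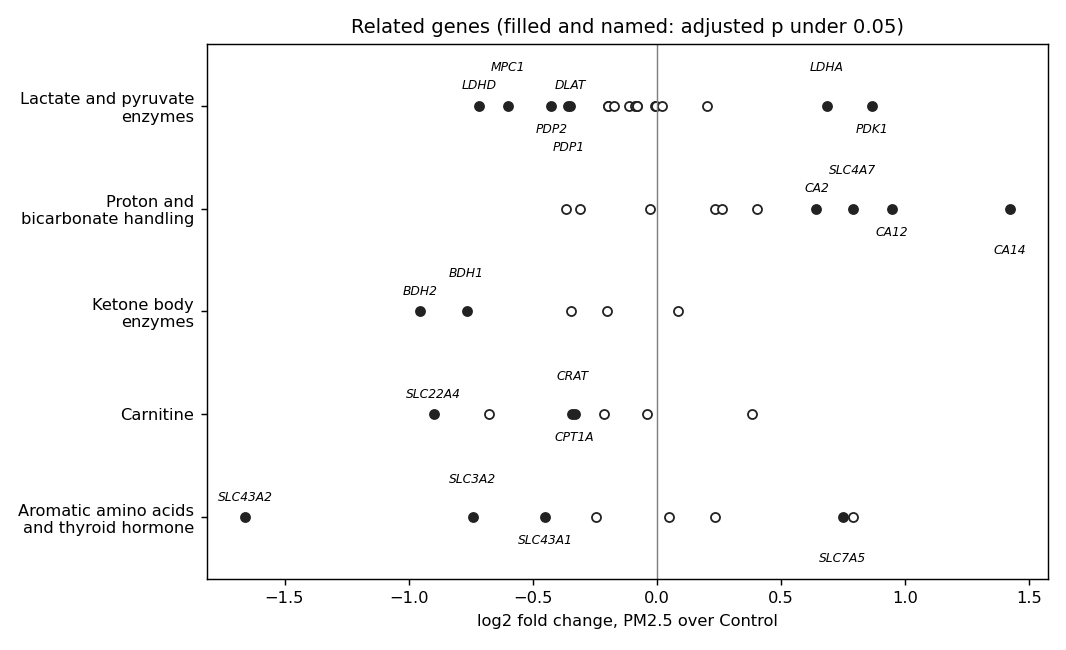
Log2 fold change, PM2.5 over Control, of tested genes in 5 groups related to SLC16 cargoes, 1 point per gene, without those not reported here; filled and named points passed an adjusted p of 0.05. CA14 and CA12 stand highest among the called genes of proton and bicarbonate handling, and SLC43A2, at -1.66, is the lowest point of the plot.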

How the data were processed

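Unnormalized counts of 58735 genes in the 6 libraries were deposited by the authors in 1 table that also holds symbols, coordinates and gene lengths, per the file headers. The submitters' processing notes name GRCh38. Which aligner, counter and strand setting were used is not given in the sources used here. A NEBNext Ultra RNA kit and a NovaSeq instrument were used, per the labels' protocols. Columns were assigned by title, and 58690 of the genes matched GENCODE 29, used for exon overlaps. Replicates differed beyond sampling noise (chi-square per degree of freedom 5.58 to 33.1 within groups).

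Counts were tested in R 4.3.3 with edgeR 4.0.16 (filterByExpr, minimum count 10; TMM factors 0.962 to 1.05; quasi-likelihood test, two-sided, group as the only term; Benjamini-Hochberg adjustment over 14975 genes). Adjusted p-values are from this fit, except those given for a left-out library, which are from the same test without that library. The SE of a log2 fold change is its size over the root of F. FPKM is CPM per kilobase of deposited length. The fit was tested on simulated counts. Alternatives used limma 3.58.1 and DESeq2 1.42.0. The named genes are the 9, the rest of the family, the chaperones, LDHA, LDHB, MPC1, MPC2 and PDK1 to PDK4, up to 4 called genes with the smallest p and the 2 most abundant of each list, genes overlapping the 9, and the 3 most like SLC16A3. The genes most like SLC16A6, genes near it and cell type markers were named besides. The 9 genes and all lists were chosen with earlier results of these data known. Some genes of these lists count in the sums and totals but are not reported here.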

Additional observations from a re-analysis of the deposited data

How the results depend on the processing

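Over 13 alternatives the genes called lower among the 9 numbered 2 to 3, a description of genes chosen with this comparison known. The number called higher was 0, and became 1 (SLC16A3) with library totals alone, a minimum count of 50 and DESeq2, and ran from 0 to 1 when a library was left out. Leaving out a library gave 1448 to 2680 genes called lower over the whole table, against 2365 with all libraries. The lowest number was without PM2.5 replicate 1. Calls over the related genes then numbered 17 to 26, against 26 with all libraries. Those over the whole table, in either direction, numbered 3245 to 5280, against 4775 (31.9% of tested genes). With the replicate number as a block, 3777 genes were called against 4775, 3 of the 9 genes among them. No pairing by number was seen: deviations of same-numbered libraries correlated at -0.00158, -0.0508 and -0.122, and 0 of 6 libraries correlated best with its own number. Deviations from the mean of 3 libraries cannot exclude that same-numbered cultures were handled together. SLC16A1, SLC16A4, SLC16A9 and SLC16A10 are limited by depth, with at most 46 counts in any library.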
